A study of Mus musculus with 69 samples.

Results

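The 37 genes described here encode integrin receptors of mouse prostate organoids and the proteins that connect those receptors to the cytoskeleton and to signalling. They were chosen by gene name for their role in adhesion, and 36 of the 37 are named in at least 1 of the 3 count tables, which together name 20717 genes. Lims2 was not analysed here, and Itgb3 and Parvb were not analysed in the table of TKOM organoids. By role they are laminin-binding chains (Itga3, Itga6, Itga7, Itgb4), collagen-binding alpha chains (Itga1, Itga2), chains of receptors for fibronectin, vitronectin and latent TGF-beta (Itga5, Itgav, Itgb3, Itgb5, Itgb6, Itgb8), other chains (Itga9, Itgb1, Itgb7), integrin activators (Tln1, Tln2, Fermt1, Fermt2), the ILK complex (Ilk, Parva, Parvb, Lims1, Lims2), signalling adaptors (Ptk2, Pxn, Bcar1), actin linkers (Vcl, Zyx, Flna, Actn1, Actn4, Tns1, Tns4, Lpp, Tes) and the hemidesmosome linker Dst.

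The organoids, epithelial cells grown as clusters in culture, were profiled by bulk sequencing of polyA RNA in 69 libraries, with n = 3 libraries in each of 23 groups. In the first table, TKOM organoids kept in suspension and taken at day 30 are set against TKOM organoids in Matrigel, a gel of basement membrane proteins rich in laminin and collagen IV, for which the labels give no day. The second table holds 3 lines of neuroendocrine prostate cancer (NEPC) called NEPC-1, NEPC-2 and NEPC-3, prostate adenocarcinoma (PRAD) organoids given COMBO for 42 or 8 days, PRAD organoids given ARi, YAPi, NOTCHi or a pair of these for 8 days, and PRAD organoids given the vehicle DMSO for 8 days. The third table holds organoids labelled TKO, PtP and WT, each given YAPi_NOTCHi, COMBO or DMSO for 8 days. The labels name the agents only by these codes, do not say what COMBO holds or at what dose, and do not spell out the alleles behind TKOM, TKO, PtP and WT. They also do not spell out the origin of the NEPC lines. The library codes of these lines begin with TKONE, and whether that refers to the TKO label is not stated. Nor do the labels say whether the 3 libraries of a group are separate cultures. The p-values therefore cover variation from library to library alone, which could be technical.

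Integrins are pairs of an alpha and a beta chain that span the cell membrane and hold the cell to the extracellular matrix. Talins and kindlins bind the tail of the beta chain and switch the receptor on, after which adaptors and kinases gather into focal adhesions and filamin, vinculin, alpha-actinins and tensins tie them to actin. In epithelia the alpha6-beta4 integrin instead anchors basal cells to laminin through hemidesmosomes and keratin filaments, and beta4 is a basal cell marker of the prostate.

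Levels are in CPM, counts of a gene scaled to a common library total within each table, so a level is a share of the RNA of a library. A gene was called at a Benjamini-Hochberg adjusted p under 0.05 in edgeR's quasi-likelihood test over all genes of its table. Library totals ran between 18629462 and 92280307 counts over the 3 tables, and spread between libraries of a group was small (common biological coefficient of variation 2.37% to 3.85%), so most genes are called in most comparisons and the size of a change carries more than the call. In bulk RNA, fewer cells of a type and less RNA per cell cannot be told apart. The 4 basal markers Krt5, Krt14, Krt15 and Trp63 summed to 2.63 to 4.59 CPM in NEPC-1, 5.41 to 6.48 in NEPC-2, 0.695 to 1.21 in NEPC-3, 2.10 to 2.35 in PRAD with COMBO at day 42, 9080 to 9307 with COMBO at day 8 and 15400 to 16100 with DMSO. The 5 neuroendocrine markers Insm1, Foxa2, Chga, Chgb and Syp summed to 1691 to 1729 CPM in NEPC-1, 2036 to 2146 in NEPC-2, 1280 to 1326 in NEPC-3, 3142 to 3292 with COMBO at day 42, 1145 to 1194 with COMBO at day 8 and 0.115 to 0.657 with DMSO, where Foxa2 was at 0. Basal and neuroendocrine markers thus move together with the adhesion genes in the contrasts of the NEPC lines and of day 42, and the part of cell makeup in the adhesion results was not tested.

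The promoter stretches of 5 members are shown because large changes between the NEPC lines and DMSO are described for them below: Fermt1 (kindlin-1), Itgav and Itgb5 fell to near 0 in the NEPC lines, while Fermt2 (kindlin-2) and Parvb (beta-parvin) rose. The sequences come from RefSeq on GRCm38.p6 and end just before the first transcript start annotated in RefSeq or GENCODE, 5′ to 3′ on the strand of the gene. Capitals mark RBPJ motifs (TGGGAA, read here on the other strand as TTCCCA) in these stretches; RBPJ is the DNA-binding factor of Notch signalling. Fermt1 lies on chr2:132946037-132946286 (minus strand), Fermt2 on chr14:45530119-45530315 (minus strand), Itgav on chr2:83724147-83724396 (plus strand), Itgb5 on chr16:33829415-33829664 (plus strand) and Parvb on chr15:84231793-84232042 (plus strand).
Fermt1: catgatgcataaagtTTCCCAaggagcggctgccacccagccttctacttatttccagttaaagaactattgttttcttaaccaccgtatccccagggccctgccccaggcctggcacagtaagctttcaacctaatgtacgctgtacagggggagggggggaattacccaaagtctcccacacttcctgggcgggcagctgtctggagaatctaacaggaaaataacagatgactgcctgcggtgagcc
Fermt2: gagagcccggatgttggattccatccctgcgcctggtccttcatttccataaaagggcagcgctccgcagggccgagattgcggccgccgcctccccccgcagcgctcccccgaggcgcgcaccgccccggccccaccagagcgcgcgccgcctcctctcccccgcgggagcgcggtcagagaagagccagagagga
Itgav: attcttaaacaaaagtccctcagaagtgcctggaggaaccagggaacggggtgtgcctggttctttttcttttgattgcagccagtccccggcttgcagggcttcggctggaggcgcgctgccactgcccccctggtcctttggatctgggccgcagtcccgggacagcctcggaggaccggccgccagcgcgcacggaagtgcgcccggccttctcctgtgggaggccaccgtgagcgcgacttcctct
Itgb5: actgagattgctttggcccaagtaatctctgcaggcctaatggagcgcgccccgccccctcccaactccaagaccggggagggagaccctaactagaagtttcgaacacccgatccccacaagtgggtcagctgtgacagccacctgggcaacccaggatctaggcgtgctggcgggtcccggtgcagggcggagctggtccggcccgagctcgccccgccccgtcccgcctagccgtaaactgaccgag
Parvb: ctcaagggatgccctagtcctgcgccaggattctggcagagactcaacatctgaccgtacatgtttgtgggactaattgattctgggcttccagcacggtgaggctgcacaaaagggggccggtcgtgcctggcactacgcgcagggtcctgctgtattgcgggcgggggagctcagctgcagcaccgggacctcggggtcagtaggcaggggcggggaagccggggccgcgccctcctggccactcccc
The stretch before Fermt1 held 5 CpG pairs at 52.4% GC, with an RBPJ motif 235 bases before the annotated start. The stretch before its paralog Fermt2 is richer in CpG, with 23 pairs at 72.1% GC in 197 bases, and held none of the 3 motifs searched. Itgav and Itgb5 held 18 CpG pairs each and Parvb held 15, and none of these 3 stretches held a motif searched. Over the 27 members with a RefSeq window from 250 bases before to 50 after the start, either strand, the TEAD motif GGAATG, the site read by the partners of YAP, was found in 5 (18.5%, against 16.6% of the windows of 27025 genes), namely Itgb1, Vcl, Flna, Actn4 and Lpp. The RBPJ motif was found in 8 (29.6%, against 28.3%) and the AP-1 motif TGANTCA in 4 (14.8%, against 8.97%). These letters describe the windows only, and no binding was measured.

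The NEPC lines held less RNA of most members than PRAD organoids with DMSO did. Against PRAD with DMSO, 27 of 36 members fell and 9 rose in NEPC-1, where 41.9% of all genes were called lower and 41.6% higher. In NEPC-2, 26 fell and 10 rose (background 42.7% and 41.1%). In NEPC-3, 27 fell and 8 rose (background 42.1% and 41.4%). The median log2 fold change over the members was -1.38, -1.01 and -1.86 in the same order of lines, beside -0.00896, -0.0289 and -0.00894 over all genes. All of these comparisons share the same DMSO libraries.

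In PRAD organoids on COMBO most members were lower at the later of the 2 times sampled. At day 42 against day 8 of COMBO, 24 of 36 members fell and 9 rose, where 34.8% of all genes were called lower and 34.9% higher. The median member changed by -0.917 on the log2 scale, against 0.00473 for all genes. At day 8 against DMSO, 20 had fallen and 12 had risen (background 38.7% and 41%), with a median of -0.41. Parva and Ptk2 are the weakest of the day-42 calls: Parva was not called under another scaling, with DESeq2 or with the replicate number as a block, and Ptk2 not when only the compared groups were fitted.

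**Figure D1:**
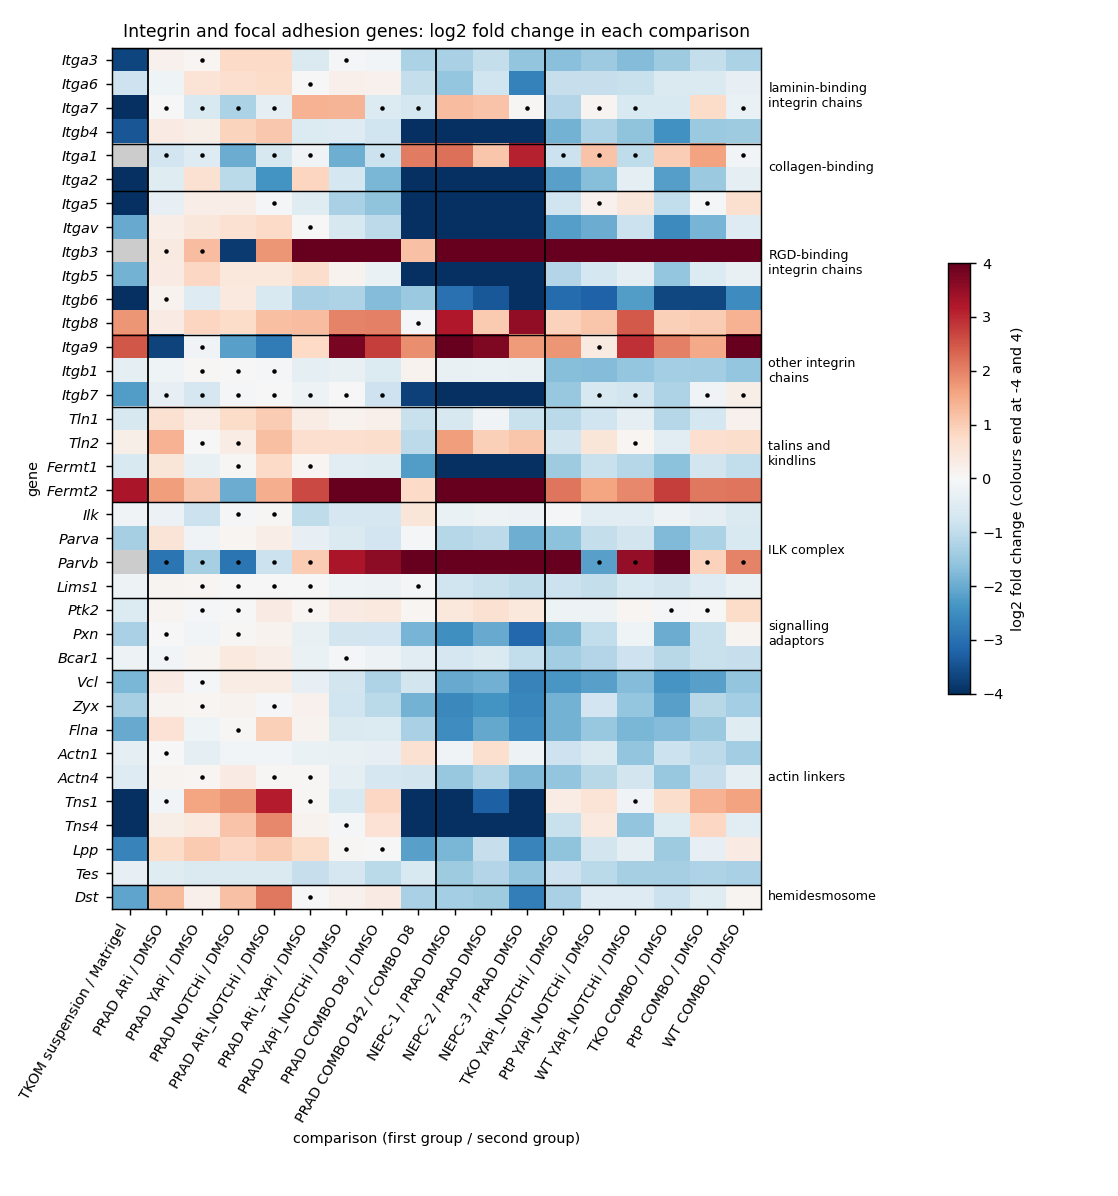
Log2 fold change of each member (rows, grouped by role) in each comparison (columns, named by the group on top and its reference); blue is lower and red higher, colours end at 4 on the log2 scale, a dot marks a gene that was not called, and grey a gene not tested. Itgb4, Itga2, Itga5, Itgav, Itgb5, Tns4 and Fermt1 are low in the 3 NEPC columns, while Itgb3, Itgb8, Itga9, Fermt2 and Parvb are high there.

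Among laminin receptors, the beta4 chain was close to 0 in the NEPC lines and at day 42, while the laminin-binding alpha chains Itga3 and Itga6 kept part of their level. Itgb4 (integrin beta4, chr11:115974709-116008412 on GRCm38) stood at 1.64, 1.31 and 1.76 CPM in NEPC-1, 0.647, 1.05 and 0.630 in NEPC-2, 1.15, 1.68 and 1.59 in NEPC-3, 1.62, 1.43 and 1.28 with COMBO at day 42, 154, 157 and 164 with COMBO at day 8 and 260.4, 280.3 and 282 with DMSO. The 12 libraries of the NEPC lines and of day 42 sit far below all DMSO and day-8 libraries with no overlap. The log2 fold change was -7.44 ± 0.09 in NEPC-1 (SE, adjusted p = 7.62e-40), -8.48 ± 0.10 in NEPC-2 and -7.54 ± 0.09 in NEPC-3.

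Itga6, the alpha chain that pairs with both beta4 and beta1, kept 106, 105 and 100.1 CPM in NEPC-1, 172, 175 and 172 in NEPC-2, 44.9, 46.9 and 46.8 in NEPC-3 and 174, 175 and 176 with COMBO at day 42, against 302, 299 and 300.4 with DMSO. NEPC-3 was the lowest and NEPC-2 stood beside day 42, and no library of these groups reached DMSO. Itga3, the other laminin-binding alpha chain of epithelia, averaged 97.4 ± 2.77 CPM in NEPC-1, 122 ± 3.51 in NEPC-2, 79.4 ± 2.21 in NEPC-3, 91.8 ± 3.99 at day 42 and 238 ± 9.03 with DMSO (SD, n = 3 each). Itga7, best known as the laminin receptor of muscle, was scarce in every group of this table, at most 0.775 CPM on average (in ARi_YAPi), and its calls in NEPC-1 and NEPC-2 were lost when single libraries were left out.

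The collagen receptor chain Itga2 was at 3.28, 3.47 and 2.60 CPM in NEPC-1, 1.97, 1.501 and 2.28 in NEPC-2, 2.81, 2.47 and 2.57 in NEPC-3, 0.227, 0.254 and 0.250 with COMBO at day 42, 26.8, 27.5 and 27.4 with COMBO at day 8 and 99.7, 91.8 and 95.9 with DMSO. Day 42 of COMBO held less Itga2 than any NEPC line, and DMSO held the most, with no overlap between the groups of NEPC, day 42, day 8 and DMSO. Itga1, the other collagen-binding chain, went the other way at low levels, with 1.94 ± 0.165 CPM in NEPC-1, 0.919 ± 0.145 in NEPC-2 and 3.60 ± 0.452 in NEPC-3, against 0.418 ± 0.0926 with DMSO.

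RNA of the chains of receptors for fibronectin, vitronectin and latent TGF-beta moved in both directions in the NEPC lines. Itgav, Itgb5, Itga5 and Itgb6 fell, while Itgb3 and Itgb8 rose. Itgav, the shared alpha chain of this family (chr2:83724397-83806916), was at 3.12, 2.43 and 2.80 CPM in NEPC-1, 1.33, 1.08 and 0.630 in NEPC-2, 0.272, 0.253 and 0.405 in NEPC-3, 0.906, 0.794 and 0.963 with COMBO at day 42, 91.3, 92.7 and 89.1 at day 8 and 191, 185 and 193 with DMSO. It was 68.1-fold lower in NEPC-1, 189-fold lower in NEPC-2 and 599.5-fold lower in NEPC-3 than with DMSO, the lowest in NEPC-3. Itgb5, a beta partner of alpha-v in the vitronectin receptor, was at 0.369, 0.371 and 0.488 CPM in NEPC-1, 0.712, 0.524 and 0.780 in NEPC-2, 0.0605, 0.221 and 0.0578 in NEPC-3, 0.0971, 0.0318 and 0.178 at day 42 and 38, 39.3 and 36.9 with DMSO. Itga5, the alpha chain of the fibronectin receptor, was at 0, 0.202 and 0.0651 CPM in NEPC-1, 0.0647, 0.0349 and 0.0900 in NEPC-2, 0.0302, 0 and 0 in NEPC-3, 0, 0.0635 and 0.178 at day 42 and 16.8, 19.9 and 16.9 with DMSO. No library of the NEPC lines or of day 42 reached 1 CPM of either gene, far below all DMSO libraries. Itgb6, the epithelial beta chain that activates latent TGF-beta, averaged 5.38 ± 0.706 CPM in NEPC-1, 4.05 ± 0.655 in NEPC-2 and 2.42 ± 0.0921 in NEPC-3, against 42.2 ± 1.70 with DMSO.

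Itgb3, the beta chain of alpha-v-beta3 and of the platelet fibrinogen receptor (chr11:104608000-104670476), rose instead. It was at 29.2, 29.9 and 29.4 CPM in NEPC-1, 122.9, 125 and 128 in NEPC-2, 66.2, 64.4 and 62.3 in NEPC-3, 41.5, 37.6 and 41.5 with COMBO at day 42, 17.7, 17.7 and 18.5 with COMBO at day 8 and 0.0769, 0.0438 and 0.0446 with DMSO. The DMSO libraries together hold few Itgb3 counts, every library of the other groups is far above them, and NEPC-2 is the highest (adjusted p = 2.01e-52 against DMSO). Its known alpha partners did not rise with it: Itgav was near 0 as given above, and Itga2b, the platelet partner, averaged 0.700 ± 0.195 CPM in NEPC-1, 0.845 ± 0.136 in NEPC-2 and 0.616 ± 0.0595 in NEPC-3, against 0.719 ± 0.253 with DMSO. The 4 platelet markers summed to 0.521 to 0.938 CPM in NEPC-1, 0.690 to 0.939 in NEPC-2 and 0.578 to 0.665 in NEPC-3, against 21.2 to 22.1 with DMSO. Of these markers, Pf4, Gp9 and Ppbp were all at 0 in NEPC-2. Of the 5 endothelial markers, 3 are named in this table and their sum rose with Itgb3, at 287 to 293 CPM in NEPC-1, 412 to 431 in NEPC-2 and 270.4 to 292 in NEPC-3, against 0.268 to 0.538 with DMSO. Nearly all of that sum was Vwf, at 422 ± 9.30 CPM in NEPC-2, while Cdh5 averaged 0.0108 and Kdr 0.0208 CPM there. The part of platelets and of endothelial cells in the Itgb3 level was not tested.

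Itgb8, another beta partner of alpha-v that presents latent TGF-beta, was at 76.1, 76.4 and 79.2 CPM in NEPC-1, 17.7, 18.1 and 16.97 in NEPC-2, 93.5, 101 and 102 in NEPC-3, 36.4, 31.1 and 31.8 with COMBO at day 42, 34.3, 33.9 and 34.8 at day 8 and 8.45, 9.02 and 7.85 with DMSO. It was highest in NEPC-3 and NEPC-1, and the libraries of day 42 and day 8 overlapped and were not called different (adjusted p = 0.403). Itga9, an alpha chain for tenascin and osteopontin, averaged 11.7 ± 0.427 CPM in NEPC-1, 9.08 ± 0.575 in NEPC-2, 2.22 ± 0.212 in NEPC-3, 16.9 ± 0.578 at day 42, 4.67 ± 0.628 at day 8 and 0.671 ± 0.303 with DMSO. Itgb1, the beta chain shared by most receptors here, fell by a small factor, with 369 ± 0.0563 CPM in NEPC-1, 374 ± 8.56 in NEPC-2, 363 ± 6.58 in NEPC-3, 337 ± 16.4 at day 42 and 449.7 ± 14.8 with DMSO. Itgb7, the beta chain of lymphocyte homing receptors, was at 0 in NEPC-2 and NEPC-3, at least 35.2-fold and 37.6-fold lower than with DMSO, counting 3 reads over the group as the floor, but DMSO itself held only 1.12 ± 0.386 CPM.

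**Figure D2:**
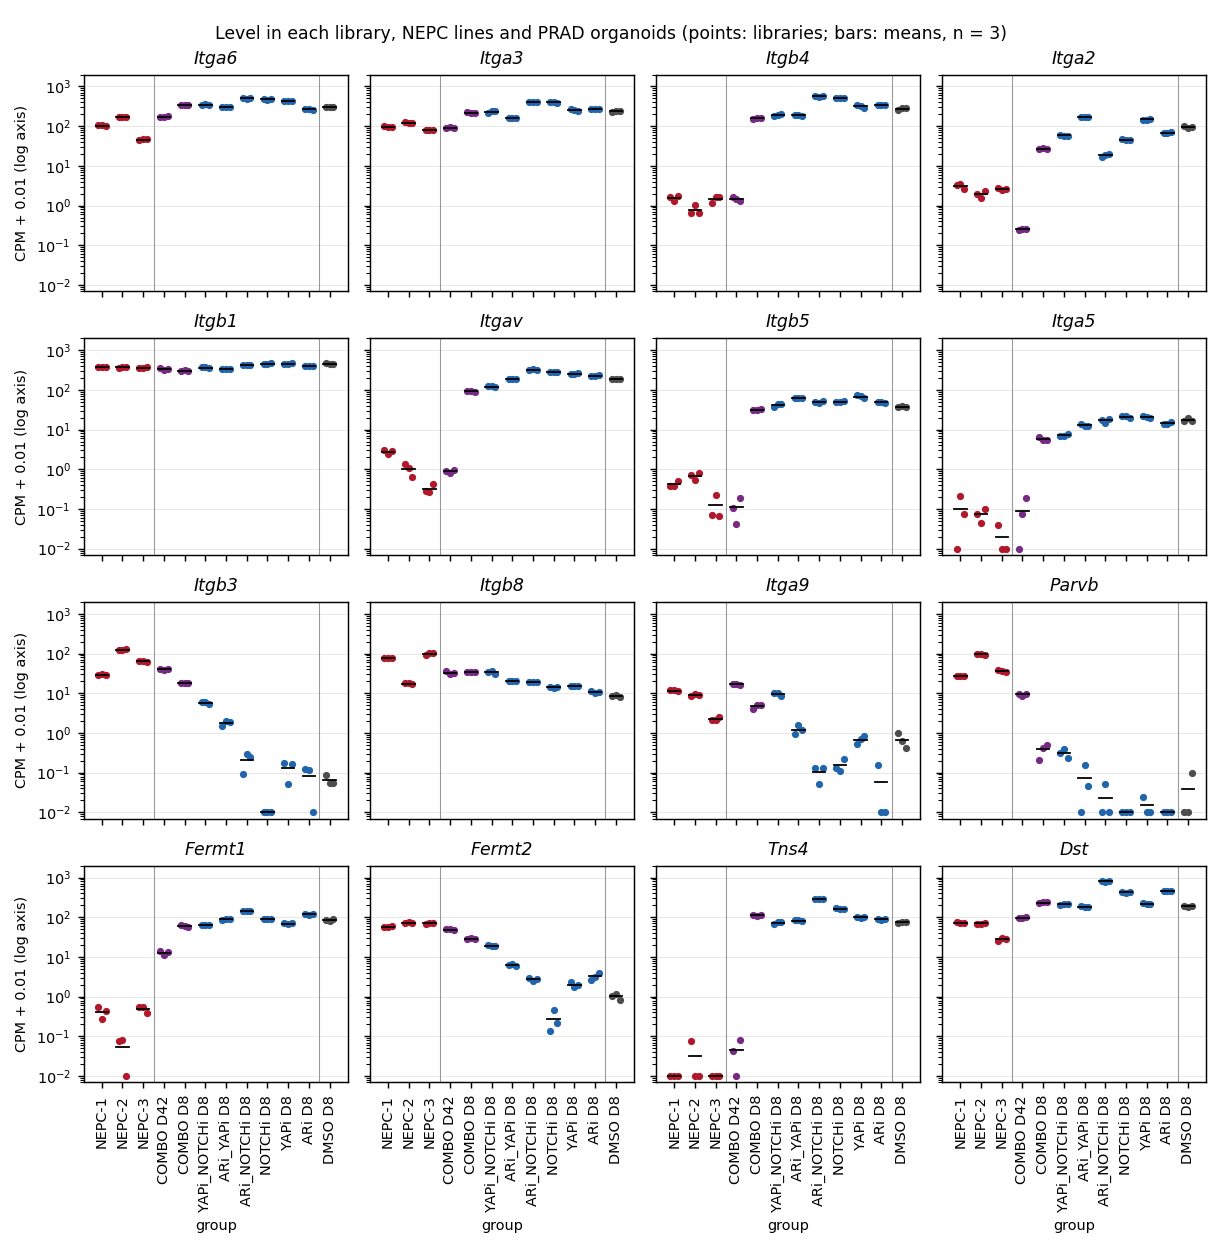
CPM of 16 members in each library of the PRAD and NEPC table, on a log axis with 0.01 added; each point is 1 library, and groups run with the NEPC lines and COMBO first and DMSO last. Itgb4, Itgav, Itga2 and Tns4 average at most 3.12 CPM in the NEPC lines and at day 42, Itgb1 stays between 307 and 461 CPM on average, and Itgb3, Fermt2 and Parvb climb.

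The activators showed an exchange of kindlins. Fermt1, the kindlin of epithelia (chr2:132904389-132945906), was at 0.536, 0.270 and 0.423 CPM in NEPC-1, 0.0647, 0.0698 and 0 in NEPC-2, 0.544, 0.537 and 0.376 in NEPC-3, 13.95, 11.1 and 13.4 with COMBO at day 42, 63.2, 59.9 and 58.4 at day 8 and 85.2, 81.9 and 88.5 with DMSO. Fermt2, the kindlin of most other tissues (chr14:45458795-45530118), was at 56.6, 56.2 and 61.04 CPM in NEPC-1, 71.4, 75.2 and 70 in NEPC-2, 69.1, 69.9 and 72.6 in NEPC-3, 49.3, 49.3 and 46.95 with COMBO at day 42, 27.9, 29.7 and 28.1 at day 8 and 1.04, 1.18 and 0.803 with DMSO. The paralogs ran in opposite directions and day 42 lies between day 8 and the lines for both, with no overlap between these groups and DMSO. Fermt2 was 57.2-fold higher in NEPC-1, 71.2-fold in NEPC-2 and 69.6-fold in NEPC-3 than with DMSO. Tln1, the main talin, averaged 76.4 ± 0.899 CPM in NEPC-1, 108 ± 2.81 in NEPC-2 and 64.5 ± 2.97 in NEPC-3, against 120.3 ± 8.01 with DMSO, and its call in NEPC-2 was lost under another scaling and with DESeq2. Tln2, the talin of muscle and brain, rose to 12.02 ± 0.260 CPM in NEPC-1, 7.34 ± 0.892 in NEPC-2 and 8.20 ± 0.445 in NEPC-3, against 3.76 ± 0.0840 with DMSO, but stood at 2.94 ± 0.113 at day 42.

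In the ILK complex, which links the beta tail to actin through parvins and PINCH proteins, Parvb rose while Parva fell but kept part of its level. Parvb (chr15:84232043-84315688) was at 26.7, 27.8 and 27.4 CPM in NEPC-1, 96.9, 99.3 and 92.01 in NEPC-2, 38.6, 37.2 and 35.3 in NEPC-3, 9.81, 8.42 and 9.70 with COMBO at day 42, 0.204, 0.419 and 0.4999 at day 8 and 0, 0 and 0.0892 with DMSO. Only 1 of the DMSO libraries held any Parvb count, and NEPC-2 again was the highest. Parva, the alpha-parvin of most tissues, averaged 69.5 ± 2.94 CPM in NEPC-1, 73.2 ± 3.31 in NEPC-2, 39.3 ± 0.973 in NEPC-3, 84.3 ± 2.14 at day 42 and 152 ± 1.34 with DMSO. Lims1 (PINCH1) averaged 88.3 ± 1.82 CPM in NEPC-1, 83.7 ± 5.38 in NEPC-2 and 76.6 ± 2.73 in NEPC-3, against 154 ± 7.18 with DMSO. Ilk, the pseudokinase core, averaged 91.9 ± 6.14 CPM in NEPC-1, 95.2 ± 3.19 in NEPC-2 and 92.9 ± 2.98 in NEPC-3, against 109.8 ± 5.21 with DMSO; 89.7% of its exon length overlaps genes on the other strand and the strand of counting is not stated, so its counts may include theirs.

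Of the signalling adaptors, Ptk2 (focal adhesion kinase) was slightly higher in the lines and the paxillin gene Pxn was lower. Ptk2 averaged 84.2 ± 0.746 CPM in NEPC-1, 94.2 ± 1.37 in NEPC-2 and 82.5 ± 1.27 in NEPC-3, against 62.2 ± 0.739 with DMSO. Pxn was 5.43-fold lower in NEPC-1, 4.03-fold in NEPC-2 and 8.88-fold in NEPC-3, with 39.8 ± 1.48, 53.6 ± 2.35 and 24.3 ± 2.63 CPM in that order of lines, against 216 ± 6.30 with DMSO. Bcar1 (p130Cas), the scaffold phosphorylated when adhesions are stretched, averaged 51.2 ± 0.192 CPM in NEPC-1, 54.9 ± 2.40 in NEPC-2 and 41.3 ± 1.95 in NEPC-3, against 81.5 ± 2.89 with DMSO.

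Most actin linkers fell, with 9 of 9 called lower in NEPC-1 and in NEPC-3, and 8 of 9 in NEPC-2. In that order, 41.9%, 42.1% and 42.7% of all genes were called lower. Tns4, a tensin of epithelia and of many carcinomas (chr11:99065678-99089306), was at 0 in every library of NEPC-1 and NEPC-3, at 0.0647, 0 and 0 CPM in NEPC-2, 0.0324, 0 and 0.0713 with COMBO at day 42, 112.2, 110.3 and 114 at day 8 and 72.3, 77.2 and 76.1 with DMSO. It was at least 2260-fold lower in NEPC-1 and at least 2480-fold lower in NEPC-3 than with DMSO, counting 3 reads over the group as the floor. Tns1, the tensin of stress fibres, averaged 0.899 ± 0.104 CPM in NEPC-1, 1.47 ± 0.536 in NEPC-2, 0.570 ± 0.142 in NEPC-3, 0.173 ± 0.0932 at day 42, 25.4 ± 1.53 at day 8 and 14.3 ± 1.09 with DMSO. Filamin A (Flna) was at 95.5, 94.6 and 93.9 CPM in NEPC-1, 130, 129 and 130.4 in NEPC-2, 98.2, 94.4 and 94.4 in NEPC-3 and 149.5, 153 and 150.1 at day 42, against 527, 531 and 548 with DMSO. These 4 groups stand below DMSO with no overlap. Vinculin (Vcl) was 4.06-fold, 3.75-fold and 6.44-fold lower in NEPC-1, NEPC-2 and NEPC-3 than with DMSO, zyxin (Zyx), which strains recruit to stress fibres, 5.97-fold, 5.20-fold and 6.12-fold, and its relative Lpp 3.53-fold, 1.88-fold and 6.27-fold. The LIM protein gene Tes fell 2.66-fold, 2.26-fold and 2.98-fold, and Actn4 2.87-fold, 2.22-fold and 3.39-fold in that order of lines. The other alpha-actinin of this set, Actn1, changed least and was higher in NEPC-2 and at day 42 than with DMSO or day 8, at 133 ± 3.13 CPM in NEPC-1, 226 ± 1.55 in NEPC-2, 128 ± 3.86 in NEPC-3 and 178 ± 6.63 at day 42, 116 ± 3.5 at day 8 and 146 ± 1.66 with DMSO. Its small change in NEPC-1 was not called when only the compared groups were fitted. Dst, whose epithelial form joins beta4 to keratin, was at 73.6 ± 2.81 CPM in NEPC-1, 70.04 ± 2.03 in NEPC-2, 27.6 ± 1.80 in NEPC-3 and 96.2 ± 3.49 at day 42, against 189 ± 1.91 with DMSO.

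Levels per kilobase of exon let chains be compared with each other. Of the summed CPM per kb of the 7 beta chains, Itgb1 made up 87.4% ± 0.0681 in NEPC-1, 79.5% ± 0.227 in NEPC-2, 81.3% ± 0.279 in NEPC-3, 88.5% ± 0.218 with COMBO at day 42 and 65.9% ± 1.26 with DMSO (SD, n = 3 each). Itgb4 made up 0.216% ± 0.0316 in NEPC-1, 0.0956% ± 0.0277 in NEPC-2, 0.192% ± 0.0346 in NEPC-3, 0.220% ± 0.0202 at day 42 and 23.4% ± 1.34 with DMSO. Itgb3 made up 4.82% ± 0.0665 in NEPC-1, 18.4% ± 0.287 in NEPC-2, 9.97% ± 0.456 in NEPC-3, 7.30% ± 0.251 at day 42 and 0.00557% ± 0.00183 with DMSO. By this measure Itgb3 takes the second place among beta chains in NEPC-2 that Itgb4 holds in DMSO.

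The summed CPM per kb of the alpha chains among the members was 30.96 ± 0.706 in NEPC-1, 42.2 ± 0.606 in NEPC-2, 19.9 ± 0.508 in NEPC-3, 37.9 ± 0.718 at day 42 and 109.8 ± 1.33 with DMSO. Within it Itga3 made up 55.1% ± 0.974 in NEPC-1, 50.6% ± 0.813 in NEPC-2, 69.7% ± 0.401 in NEPC-3, 42.5% ± 1.04 at day 42 and 37.9% ± 1.06 with DMSO, and Itga6 37.1% ± 0.711, 45.4% ± 0.642, 25.7% ± 0.612, 51.2% ± 0.961 and 30.3% ± 0.431 in the same order. The 2 laminin-binding chains so made up most of what alpha chain RNA of the members was left. Itgav made up 0.219% ± 0.0241 at day 42 and 16.1% ± 0.292 with DMSO.

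The kindlins changed in kind and little in amount. Fermt1 made up 0.639% ± 0.211 of kindlin CPM per kb in NEPC-1, 0.0557% ± 0.0482 in NEPC-2, 0.626% ± 0.136 in NEPC-3, 19.4% ± 2.07 with COMBO at day 42, 65.8% ± 1.34 at day 8 and 98.7% ± 0.289 with DMSO. The sum of Fermt1 and Fermt2 was 11.2 ± 0.522 CPM per kb in NEPC-1, 13.9 ± 0.522 in NEPC-2, 13.7 ± 0.339 in NEPC-3, 11.6 ± 0.301 at day 42, 16.1 ± 0.425 at day 8 and 15.1 ± 0.538 with DMSO. Parvb made up 47.5% ± 1.58 of the 2 parvins in NEPC-1, 75.1% ± 0.194 in NEPC-2, 68.4% ± 1.07 in NEPC-3, 20.3% ± 1.73 at day 42, 0.955% ± 0.373 at day 8 and 0.0447% ± 0.0775 with DMSO.

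**Figure D3:**
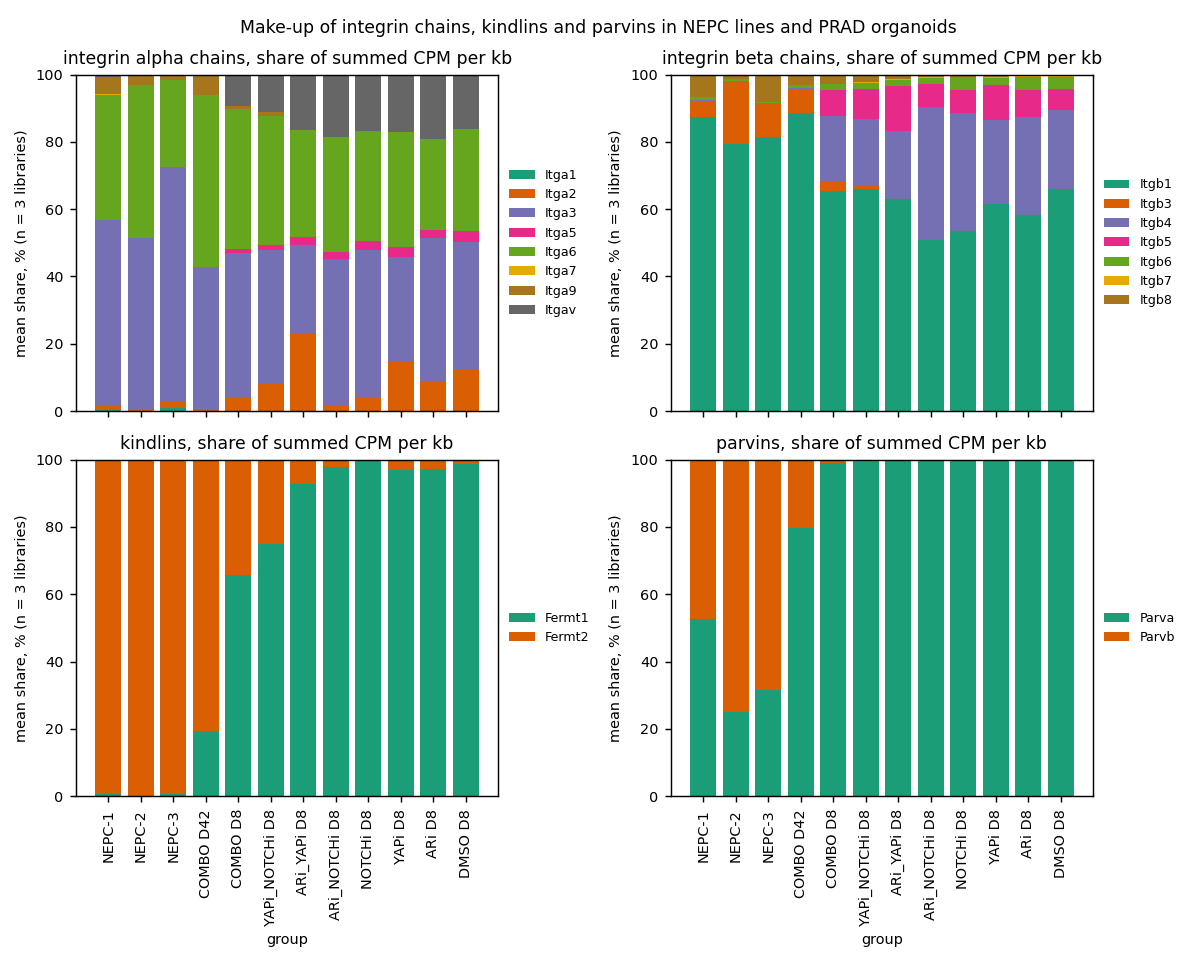
Share of summed CPM per kilobase of exon held by each gene within the integrin alpha chains, beta chains, kindlins and parvins, as the mean of 3 libraries per group (stacked bars from 0 to 100%). In the NEPC lines Itgb1 holds most of the beta chains, Itga3 and Itga6 most of the alpha chains, Fermt2 nearly all kindlin RNA, and Parvb between 47.5% and 75.1% of the parvin RNA.

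The 3 NEPC lines also differed among themselves. An F-test over the lines called 31 of 36 members, where 74.9% of all genes were called; Itga5, Itgb1, Itgb7, Ilk and Tns4 were not called. Itgb3 and Parvb were highest in NEPC-2 (adjusted p = 3.33e-36 and 3.06e-29 over the lines), Itgb8 was lowest there (1.11e-41), and Itga6 and Dst were lowest in NEPC-3 (2.87e-48 and 4.43e-37). NEPC-3 held the lowest mean of Itga3, Itga9, Itgav, Itgb5, Itgb6, Parva, Pxn, Vcl and Lpp as well. Actn1 stood apart in NEPC-2 (2.93e-32), with 226, 224 and 227 CPM there, 136, 133 and 129.7 in NEPC-1 and 130.1, 129 and 123.1 in NEPC-3.

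Set against COMBO at day 42, the mean of the 3 NEPC lines was higher in 16 members and lower in 13, with 7 not called, where 33.1% of all genes were called higher and 31.7% lower. The median member differed by 0.047 on the log2 scale. The widest gaps were Fermt1, -5.92 ± 0.11 on the log2 scale (SE), which was still at 12.8 ± 1.53 CPM at day 42, and Itga2, 3.34 ± 0.19, which was lower at day 42 than in any line. Tns1 differed by 2.34 ± 0.31 and Parvb by 2.31 ± 0.08. Itgb4, Itga5 and Itgav differed by -0.26, -0.86 and 0.11 and were not called.

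After 8 days the single agents ARi and NOTCHi had raised more members than they lowered, by small factors. The shares under YAPi lay near those of all genes, but this depended on the scaling. ARi called 19 of 36 members higher and 7 lower (background 27% and 27.2%), YAPi 14 and 8 (background 35% and 26.8%), and NOTCHi 18 and 7 (background 26% and 28%). The medians were 0.116, 0.0717 and 0.116 on the log2 scale, against 0, 0.0637 and -0.00638 over all genes. Under another scaling (RLE), YAPi called 19 members higher and 7 lower, where 7086 of 18483 genes were higher and 4352 lower. DESeq2 also gave 19 and 7 members, where 7034 of 18793 genes were higher and 4341 lower. All agents are compared with the same DMSO libraries. Under NOTCHi, Itgb4 rose to 514, 515 and 511 CPM and Dst to 423, 413 and 425 CPM, against 260.4, 280.3 and 282 and 189.9, 186 and 189.6 CPM with DMSO. Under ARi, Dst rose to 453, 448 and 448 CPM and Tln2 to 10.1, 9.24 and 10.6, against 189.9, 186 and 189.6 and 3.69, 3.85 and 3.75 with DMSO. YAPi raised Tns1 to 43.8, 45.1 and 39.1 CPM and Lpp to 333, 347 and 335, against 15.3, 13.1 and 14.4 and 174, 160 and 162 with DMSO. None of these groups overlaps DMSO. The basal markers summed to 20770 to 21000 CPM with ARi, 15970 to 17870 with YAPi and 31680 to 32140 with NOTCHi, against 15400 to 16100 with DMSO, and their part in these changes was not tested. Itgb3, Itga1 and Itga9 were under 1 CPM with NOTCHi and with DMSO, and their calls there ended when only these groups were fitted.

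The pair ARi_NOTCHi raised both tensins of the set, and it also raised Itgb4 and Dst. It called 21 of 36 members higher and 5 lower (background 35% and 33.1%), with a median of 0.288 against 0.00227 for all genes. Tns1 was at 126, 125 and 125 CPM, against 15.3, 13.1 and 14.4 with DMSO. Dst was at 842, 785 and 829 CPM, against 189.9, 186 and 189.6 with DMSO. Tns4 was at 282, 283 and 280.4 CPM, against 72.3, 77.2 and 76.1 with DMSO. All 3 genes stood above DMSO in every library, by 8.74-fold, 4.34-fold and 3.75-fold. Itgb4 and Flna rose 2.09-fold and 1.92-fold, and Itga2 fell to 18.3 ± 1.16 CPM, against 95.8 ± 3.94 with DMSO. In the same libraries the basal markers summed to 30520 to 30820 CPM, against 15400 to 16100 with DMSO, and of the fibroblast markers, 3 of 7 are named in this table and summed to 1005 to 1040 CPM, against 82.1 to 86.8 with DMSO. Of that sum Dcn was 1019 ± 17.6 CPM, while Col3a1 averaged 0.852 and Pdgfra 0.0540 CPM; the part of cell makeup in these rises was not tested.

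ARi_YAPi called 13 members higher and 12 lower (background 39.7% and 30.5%), with a median of 0.0299. The neuroendocrine markers summed to 125 to 133 CPM there, against 0.115 to 0.657 with DMSO, and their part was not tested. The widest called change was Itgb3, at 1.53, 1.95 and 1.92 CPM, against 0.0769, 0.0438 and 0.0446 with DMSO. Fermt2 was at 6.37, 6.49 and 5.90 CPM, against 1.04, 1.18 and 0.803 with DMSO, and Itgb6 fell to 16.2, 17.6 and 18, against 44.1, 41.4 and 40.97 with DMSO.

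Of the 8 members that were higher than with DMSO in each NEPC line, the pair YAPi_NOTCHi raised 7 within 8 days (Fermt2, Itgb8, Itga9, Itgb3, Parvb, Tln2 and Ptk2) and lowered Itga1. It called 19 of 36 lower and 12 higher (background 35.1% and 40.2%). Fermt2 was at 19.8, 19.2 and 18.4 CPM, Itgb8 at 34.5, 35.6 and 30.9 and Itga9 at 10.3, 9.89 and 8.62, against 1.04, 1.18 and 0.803, 8.45, 9.02 and 7.85 and 0.999, 0.613 and 0.401 with DMSO. Itgb3 was at 6.19, 5.94 and 5.38 CPM, against 0.0769, 0.0438 and 0.0446 with DMSO. These 4 genes stood above DMSO in every library, while Itgb4 (191 ± 9.08 CPM, against 274 ± 12.1 with DMSO) and Itgav (121 ± 2.87 CPM, against 189.8 ± 4.09 with DMSO) were lower but far from the level of the lines. Parvb was at 0.311, 0.391 and 0.218 CPM, against 0, 0 and 0.0892 with DMSO, and Itga1 at 0.138, 0.0712 and 0.109, against 0.461, 0.482 and 0.312, all low levels. The calls of Parvb and Itga1 were lost when only the compared groups were fitted. The 8 members were picked against the same DMSO libraries that the pair is compared with. Tln2 rose 1.59-fold and Ptk2 1.26-fold. The neuroendocrine markers moved with these genes, at 749.7 to 799.8 CPM with the pair, against 0.115 to 0.657 with DMSO, as did the basal markers, at 11080 to 11800, against 15400 to 16100. Their part in these changes was not tested.

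The effect of the pair was not the sum of its parts. The interaction of YAPi with NOTCHi on the log2 scale, that is the effect of the pair minus both single effects, was called below 0 in 23 of 36 members and above 0 in 10 (background 30.7% and 28.1%), with a median of -0.481. It was 5.16 ± 0.34 for Fermt2 (SE, adjusted p = 1.09e-19), which NOTCHi alone lowered to 0.265 ± 0.177 CPM and YAPi alone raised to 2.01 ± 0.324, against 1.01 ± 0.192 with DMSO. It was 6.12 ± 0.50 for Itga9, a size limited by the low counts of Itga9 with NOTCHi and with DMSO, described above. It was -3.96 ± 0.11 for Tns1, which YAPi raised to 42.7 ± 3.16 CPM and NOTCHi to 48.6 ± 3.42, while the pair left 9.35 ± 0.308. Itgb4 (-1.65), Itga5 (-1.81), Lpp (-1.81) and Itgav (-1.69) also fell below the sum. The calls of Ilk and Actn1 here were lost under another scaling and with DESeq2.

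COMBO at day 8 differed from the pair YAPi_NOTCHi in 20 of 36 members. It called 15 of 36 members lower and 5 higher, with 16 not called (background 21.7% and 20.4%). Itgb3 was at 17.99 ± 0.467 CPM with COMBO and 5.84 ± 0.414 with YAPi_NOTCHi, Tns1 at 25.4 ± 1.53 and 9.35 ± 0.308, and Itga2 at 27.2 ± 0.351 and 58.3 ± 1.49 CPM in the same order. Fermt2 was at 28.6 ± 0.998 CPM with COMBO and 19.1 ± 0.689 with the pair.

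TKOM organoids kept in suspension to day 30 held less RNA of laminin and collagen receptors than those in Matrigel. Of the 33 members tested, 29 fell and 4 rose, where 38.8% of all genes were called lower and 38.3% higher, with a median of -1.33 against -0.00442 for all genes. Itga1 was listed at 0.0814, 0.156 and 0.0624 CPM in suspension and 0.229, 0.483 and 0.610 in Matrigel, too low to be tested.

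Itga3 was at 16.98, 15.9 and 17.2 CPM in suspension, against 216, 216 and 205 in Matrigel. Itga2 was at 1.004, 1.06 and 1.09 CPM in suspension, against 118, 111.7 and 108 in Matrigel. Itgb4 was at 16.5, 15.4 and 15.9 CPM in suspension, against 175, 176 and 162 in Matrigel. These matrix receptors were 12.7-fold, 107-fold and 10.7-fold lower in suspension with no overlap, while Itga6 kept 129.9 ± 3.49 CPM in suspension, against 231 ± 8.53 in Matrigel, and Itgb1 275 ± 4.90, against 359 ± 4.28. Tns4 was at 0.136, 0.156 and 0.250 CPM in suspension, against 53.8, 59.2 and 57.8 in Matrigel, and Itga7 was at 0 in suspension, at least 121-fold below its 3.64 ± 0.599 CPM in Matrigel. Itgb6 fell 26.3-fold, Itga5 31.4-fold, Tns1 32.8-fold and Lpp 6.41-fold. Of the actin linkers 9 of 9 fell (background 38.8%). Itgb7 averaged 0.198 ± 0.0471 CPM in suspension, against 0.964 ± 0.258 in Matrigel.

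The members that rose in suspension were Fermt2, Itga9, Itgb8 and Tln2. Fermt2 was at 9.28, 8.41 and 8.67 CPM in suspension, against 1.09, 0.676 and 0.901 in Matrigel. Itga9 was at 2.69, 2.34 and 2.09 CPM, against 0.356, 0.547 and 0.371 in Matrigel, and Itgb8 at 1.33, 1.40 and 0.967, against 0.381, 0.354 and 0.345 in Matrigel. Tln2 averaged 30.5 ± 0.490 CPM in suspension, against 25.96 ± 1.34 in Matrigel. Fermt1, near 0 in the NEPC lines, was called lower in suspension, at 59.4 ± 2.59 CPM, against 90.6 ± 2.64 in Matrigel. The 2 tables were scaled separately, so the difference between suspension and the NEPC lines was not tested. The basal markers moved with these genes, at 30.4 to 34.9 CPM in suspension, where Trp63 was at 0, against 2509 to 2717 in Matrigel, and 2 of the 5 neuroendocrine markers are named in this table and summed to 30.3 to 32.2 CPM in suspension, against 0.0322 to 0.229 in Matrigel. The part of cell makeup in these changes was not tested.

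**Figure D4:**
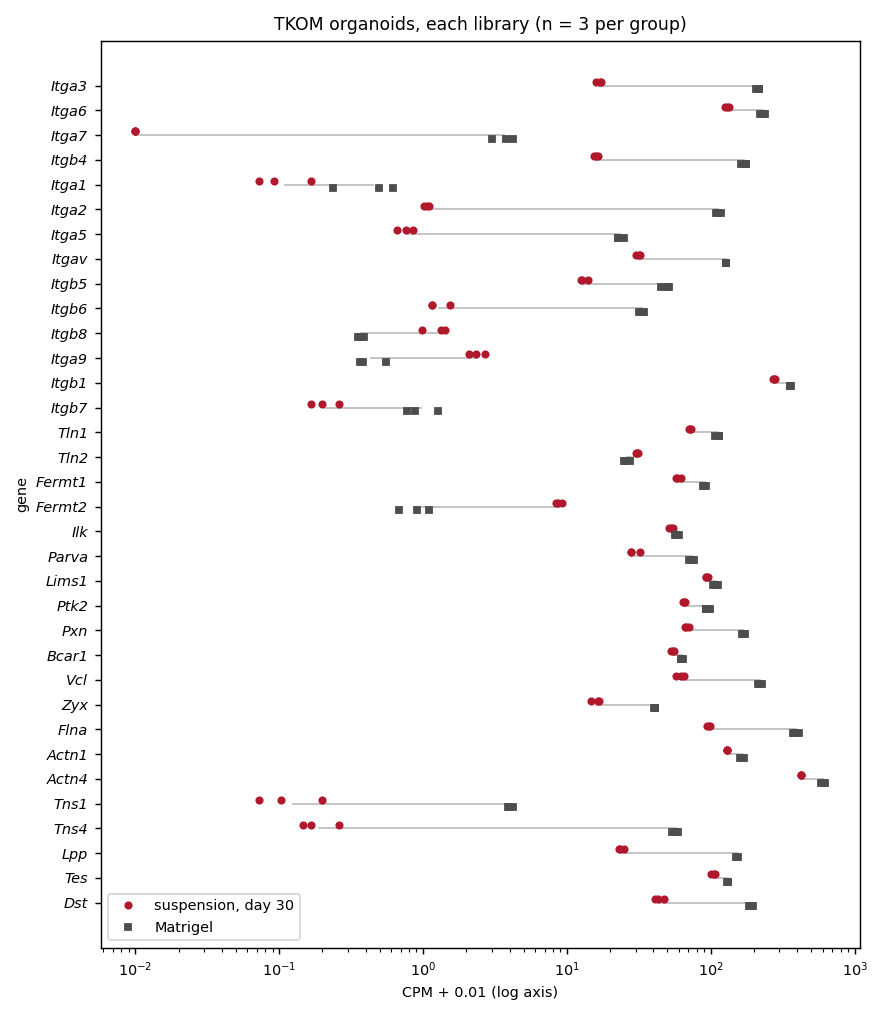
CPM of 34 members (rows) in each library of TKOM organoids in suspension at day 30 (circles) and in Matrigel (squares), on a horizontal log axis. Each point is 1 library, and Itga1 is shown but was not tested. Mean CPM is lower in suspension than in Matrigel for all members tested except Fermt2, Itga9, Itgb8 and Tln2.

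In the genotype table the untreated organoids differed between PtP and WT more than between TKO and PtP. With DMSO, 15 of 36 members were lower and 14 higher in PtP than in WT (background 30.8% and 30.1%), and 8 were higher and 7 lower in TKO than in PtP (background 13.3% and 13.3%). Leaving out 1 library at a time, between 10 and 13 members in place of 15 were called between TKO and PtP, the fewest without TKO replicate 2, and with 4 called higher then. Tns4 was at 52.6, 50.3 and 55.5 CPM in PtP, against 308, 313 and 309.6 in WT. Itga3 was at 339, 358 and 352 CPM in PtP, against 686, 708 and 706 in WT, and Itga6 at 386, 378 and 399, against 761.9, 796 and 767 in WT. Itgb4 averaged 343 ± 10.6 CPM in PtP and 634 ± 17.7 in WT, and Dst 209 ± 6.85 in PtP and 435 ± 11.6 in WT, so the laminin receptor and its linker were lower in PtP without overlap. Itgav and Itga2 went the other way, at 254 ± 8.00 and 198 ± 1.56 CPM in PtP, against 129 ± 0.347 and 119.6 ± 5.52 in WT. The basal markers summed to 10330 to 10480 CPM in PtP, against 19710 to 19960 in WT.

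YAPi_NOTCHi lowered most members in each genotype. Against the DMSO libraries of the same genotype, 29 of 36 were lower and 6 higher in TKO (background 40.5% and 45.6%), 24 and 6 in PtP (background 40.5% and 44.9%) and 24 and 6 in WT (background 40.2% and 45.5%). The medians were -1.17 in TKO, -0.784 in PtP and -0.671 in WT, beside 0.096, 0.0872 and 0.11 for all genes. COMBO called 28 lower and 7 higher in TKO (background 40.9% and 46.1%), 23 and 9 in PtP (background 40.1% and 44.7%) and 20 and 12 in WT (background 40.8% and 44.9%). COMBO and YAPi_NOTCHi share the DMSO libraries of each genotype. DESeq2 moved the median of all genes by up to 0.0949 on the log2 scale in these contrasts.

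Itgb1, which differed little between the NEPC lines and DMSO, fell here in each genotype, in a table scaled on its own. It was at 212, 224 and 213 CPM in TKO with YAPi_NOTCHi, against 708, 698 and 720.1 with DMSO. In PtP it was at 229.8, 213 and 226 CPM, against 746, 721 and 747 with DMSO, and in WT at 326, 327 and 339.9, against 949, 968 and 954 with DMSO. No library with the agents reached any DMSO library of its genotype. Itgb6 fell 8.39-fold in TKO, 9.52-fold in PtP and 4.70-fold in WT, and Vcl 5.00-fold, 4.55-fold and 3.35-fold in that order. Fermt2 rose to 23.1 ± 0.687 CPM in TKO, against 5.31 ± 0.709 with DMSO, to 9.78 ± 0.458 in PtP, against 3.28 ± 0.220, and to 10.9 ± 0.313 in WT, against 2.85 ± 0.160. Itgb3 was at 2.15, 2.79 and 2.86 CPM in TKO with YAPi_NOTCHi and 7.02, 5.77 and 7.49 with COMBO, and at 0 in all TKO libraries with DMSO, which makes it at least 65.7-fold and at least 174-fold higher with the agents, counting 3 reads over the group as the floor. Parvb was likewise at 0 in TKO with DMSO and at least 12.2-fold higher with YAPi_NOTCHi and 14.8-fold with COMBO, at the low levels of 0.482 ± 0.159 and 0.572 ± 0.172 CPM. Its call with YAPi_NOTCHi was lost when only the compared groups were fitted.

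On the log2 scale, the effect of YAPi_NOTCHi was lower in TKO than in WT for most members. The difference of the effects, TKO minus WT on the log2 scale, was called below 0 in 22 of 36 members and above 0 in 5 (background 35.9% and 32.8%), with a median of -0.443. Pxn was at 87.2, 87.1 and 86.8 CPM in TKO with YAPi_NOTCHi, against 303, 303 and 302 with DMSO, and in WT at 221, 241 and 225, against 255, 261 and 268 with DMSO. Itga2 was at 41.9, 44.4 and 43.7 CPM in TKO with YAPi_NOTCHi, against 197, 198 and 197 with DMSO, and in WT at 87.7, 90.4 and 93.96, against 120, 125 and 114 with DMSO. Both fell further in TKO, by -1.61 ± 0.04 and -1.78 ± 0.05 in the difference of effects (log2, SE; adjusted p = 4.1e-49 and 1.3e-46). Itga3 and Itga6 fell by nearly the same factor in both, with differences of 0.05 and -0.01 that were not called. The neuroendocrine markers summed to 612 to 627 CPM in TKO with YAPi_NOTCHi, against 0.344 to 0.492 with DMSO, and in WT to 126 to 133, against 0.263 to 0.330. The basal markers summed to 2724 to 2766 CPM in TKO with YAPi_NOTCHi, against 8869 to 8913 with DMSO, and in WT to 11360 to 11710, against 19710 to 19960. Both genotypes so held more neuroendocrine and less basal marker RNA with the agents. Of the fibroblast markers, 3 of 7 are named in this table, and their sum moved in opposite directions in the 2 genotypes. They summed to 40.5 to 42.8 CPM in TKO with YAPi_NOTCHi, against 179 to 189 with DMSO, and in WT to 347 to 352, against 6.05 to 6.54. Nearly all of that sum was Dcn, while Col3a1 and Pdgfra averaged 0.521 and 0.781 CPM in TKO with YAPi_NOTCHi, and 3.62 and 0.2998 in WT with YAPi_NOTCHi. The part of these cell types in the difference was not tested.

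**Figure D5:**
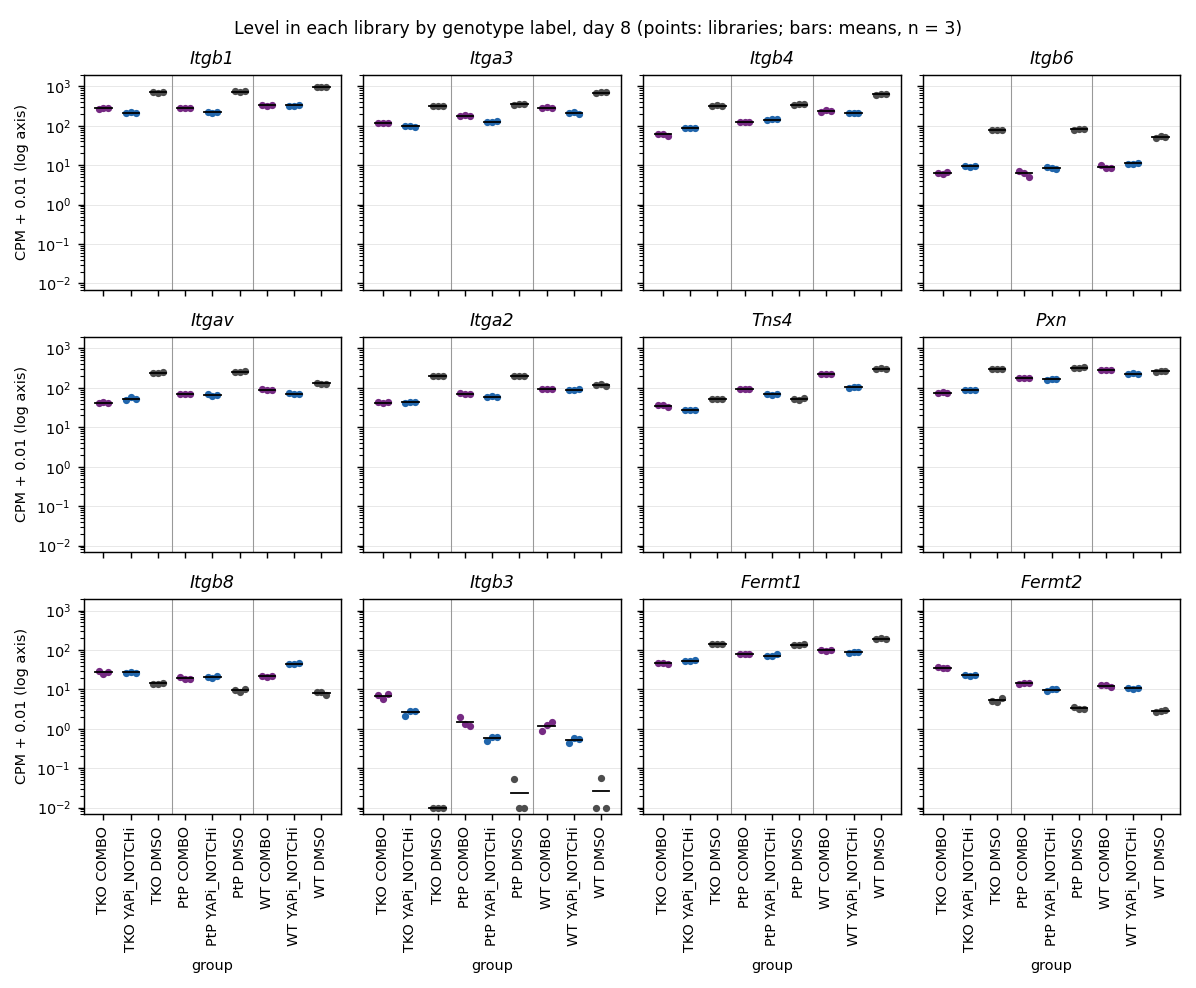
CPM of 12 members in each library of the TKO, PtP and WT organoids given YAPi_NOTCHi, COMBO or DMSO, on a log axis with 0.01 added; each point is 1 library. Itgb1 and Itgb6 are lower with either agent mix than with DMSO in each genotype, while Fermt2 and Itgb3 are higher.

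Other genes of the adhesion pathway were taken from lists of ligands, of hemidesmosome parts with related plakins, and of further focal adhesion proteins. Of the integrin ligands tested, 15 of 15 were lower in suspension than in Matrigel (median log2 fold change -5.49; background 38.8% lower), led by Lama3 and Lamb3, chains of the laminin that hemidesmosomes bind: Lama3 averaged 0.0777 ± 0.0678 CPM in suspension and 73.9 ± 3.38 in Matrigel, and Lamb3 0.248 ± 0.00301 and 108 ± 4.53. Of 17 tested in the second table, 13 were called lower and 3 higher in NEPC-1 than with DMSO, 14 and 2 in NEPC-2, and 13 and 1 in NEPC-3 (background 41.9% and 41.6%, 42.7% and 41.1%, and 42.1% and 41.4%). Lamb3 averaged 0.399 ± 0.187 CPM in NEPC-1, 0.215 ± 0.00974 in NEPC-2 and 0.192 ± 0.0192 in NEPC-3, against 225 ± 2.85 with DMSO. Between day 42 and day 8 of COMBO, 13 of 17 were lower and 2 higher (background 34.8% and 34.9%). ARi_NOTCHi raised 12 of 17 and lowered 4 (background 35% and 33.1%), and YAPi_NOTCHi raised 4 and lowered 11 (background 40.2% and 35.1%).

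The list of hemidesmosome parts and related plakins held 5 genes, of which Evpl and Eppk1 are plakins not specific to hemidesmosomes. Of the 5, Col17a1 had the widest change between day 42 and day 8 of COMBO and in suspension. Col17a1 is the collagen XVII that spans the membrane beside beta4. It averaged 0.0663 ± 0.0318 CPM with COMBO at day 42 and 599 ± 2.44 at day 8, 1399 ± 33.8 with ARi_NOTCHi and 410 ± 18.8 with DMSO, and 0.0389 ± 0.0133 in suspension and 129.7 ± 6.29 in Matrigel. All 5 were called lower at day 42 than at day 8 of COMBO (background 34.8%) and lower in suspension (background 38.8%), and all 5 rose with NOTCHi (background 26%). With ARi_NOTCHi 4 rose and Evpl fell, and with YAPi_NOTCHi 4 rose and Cd151 fell, while most members were lower with that pair. Against DMSO, 1 was higher and 4 were lower in NEPC-1, none and 4 in NEPC-3, and 1 (Eppk1) and 2 (Col17a1 and Cd151) in NEPC-2.

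Of 48 further focal adhesion genes, 30 were lower and 18 higher in NEPC-1 than with DMSO, 29 and 17 in NEPC-2, and 32 and 14 in NEPC-3, where 41.9% and 41.6%, 42.7% and 41.1%, and 42.1% and 41.4% of all genes were lower and higher. With YAPi_NOTCHi in PRAD organoids 20 were higher and 20 lower (background 40.2% and 35.1%), and with COMBO in WT organoids 23 and 22 (background 44.9% and 40.8%). Ajuba, a LIM protein that binds Hippo pathway kinases, averaged 0.332 ± 0.114 CPM in NEPC-1, 1.30 ± 0.135 in NEPC-2 and 0.292 ± 0.0238 in NEPC-3, against 221 ± 7.44 with DMSO. The Src family kinase Fyn went up, to 74.1 ± 2.45 CPM in NEPC-1, 93.6 ± 2.09 in NEPC-2 and 94.4 ± 1.19 in NEPC-3, against 0.455 ± 0.282 with DMSO. Dock1, the exchange factor that acts with Bcar1 and Crk, averaged 3.49 ± 0.489 CPM in NEPC-1, 1.28 ± 0.0867 in NEPC-2, 0.210 ± 0.106 in NEPC-3 and 0.0428 ± 0.0370 at day 42, against 95.9 ± 1.72 with DMSO. Of 8 integrin genes tested outside the 37, 4 were higher and 2 lower in NEPC-1, 3 and 2 in NEPC-2, and 3 and 2 in NEPC-3. The background was 41.6% and 41.9%, 41.1% and 42.7%, and 41.4% and 42.1% in that order. Of the integrin genes outside the 37, Itgbl1, which codes for a secreted integrin-like protein, averaged 17.3 ± 1.31 CPM in NEPC-1, 22.4 ± 1.29 in NEPC-2 and 11.9 ± 0.304 in NEPC-3, against 0.0149 ± 0.0257 with DMSO.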

How the data were processed

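The authors deposited 3 tables of estimated counts per gene for the polyA RNA libraries. The genome build was mm10, per the submitters' processing notes. No source used here names the aligner, the counting program, the annotation or the strand setting. Fractional values (more than 0.01 from a whole number) make up 40.8% to 46.3% of the tables. Columns were matched to samples through the library code in the labels. Lines with no gene name (at most 0.0114% of a library) were left out, lines of the same name were summed (15, 16 and 17 names), and values were rounded to whole numbers.

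A separate model over all groups of a table was fitted with edgeR 4.0.16 in R 4.3.3: filterByExpr (minimum count 10), TMM scaling, and the quasi-likelihood F-test on group means, 2-sided. This tested 15733 genes in the TKOM table, 18483 in the PRAD and NEPC table and 18430 in the genotype table. Adjusted p-values are Benjamini-Hochberg over all genes tested in a table, and a gene was called under 0.05. Background percentages are shares of all genes tested that were called in the same direction. CPM uses the TMM-scaled library total. A ± after a level is the SD over 3 libraries, and after a log2 fold change its SE. Folds against a group at 0 use a floor of 3 counts over the group and cover counting error only. Levels per kilobase divide CPM by the length of merged exons in GENCODE M21 on GRCm38. The tests were tried on simulated data first.

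The members and gene lists were chosen with earlier results of these data known. One gene of the neuroendocrine marker list is not reported here. Every member may be named; the rule was to give those called and changed at least 2-fold by library, but many of them are given as a mean with SD or as a fold for length. From the other lists the called genes with the widest change are named. Alternatives were RLE scaling, DESeq2 1.42.0, no filter, only the compared groups, the replicate number as a block, and leaving out each library. Libraries of a group differed by more than sampling noise, and none was left out or merged.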

Additional observations from a re-analysis of the deposited data

Results flagged for a closer look

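The effect of YAPi_NOTCHi on the members was compared between TKO and WT by the test of the difference itself. It was lower in TKO for 22 members and higher for 5 (edgeR, adjusted p under 0.05, 36 tested). Of all genes, 35.9% were called lower and 32.8% higher in the same test. The members past 2-fold in that difference were 7, all lower in TKO, and the share of all genes past 2-fold is not given here. On the log2 scale, TKO minus WT, they were Itga2 (-1.78), Pxn (-1.61), Itgb8 (-1.52), Itgav (-1.34), Lpp (-1.24), Itga5 (-1.23) and Itga9 (-1.15). For Itgb8 and Itga9 the agents raised the gene in both genotypes and by less in TKO. Itga5 fell to 4.62, 5.26 and 6.08 CPM in TKO with YAPi_NOTCHi, against 9.67, 8.98 and 8.93 with DMSO, and rose in WT to 13.2, 14.6 and 15.1, against 10.99, 10.4 and 10.2 with DMSO. The Itga9 difference rests on 0.158, 0.283 and 0.119 CPM in WT with DMSO and was not called when either of 2 single libraries was left out. What lies behind these differences was not tested.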

How the results depend on the processing

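Over 24 directed comparisons, 707 member calls were made, and none changed direction under RLE scaling, DESeq2, no filter, the compared groups alone, the replicate block or any single library left out. RLE scaling lost 9 of the 707, DESeq2 15, the compared groups alone 22 and no filter 0. Calls gained were 21 with RLE scaling, 21 with DESeq2, 10 with the compared groups alone, 1 with no filter and 2 with the replicate block. With the replicate block 3 were lost (Itgb3 under NOTCHi, Parva between the times of COMBO, Actn4 between the NEPC lines and day 42) and the count for the suspension comparison was again 33; the block moved no count of members called past 1.5 times. Replicate numbers do not pair the libraries: deviations of same-numbered libraries had a mean correlation of -0.0578 in the TKOM table, -0.00241 in the PRAD and NEPC table and 0.00262 in the genotype table, and 0 of 6, 11 of 36 and 10 of 27 libraries lay nearest to one of their own number. Leaving out single libraries, the count of members called stayed within 1.5 times in every comparison, and was 10 to 13 in place of 15 between TKO and PtP. DESeq2 called 5 members higher there in place of 8. With only the compared groups fitted, NOTCHi lowered 3 members in place of 7. DESeq2 was not run for the test over the NEPC lines. Depth limits members at or below about 1 CPM, which holds for Itga1, Itga7 and Itgb7 in most groups and for Itgb3 and Parvb with DMSO.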

Other observations

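In TKO organoids, YAPi_NOTCHi also moved adhesion genes outside the 37. Actn2, the alpha-actinin of striated muscle, was at 4.34, 4.28 and 4.30 CPM with YAPi_NOTCHi, against 0, 0 and 0 with DMSO. Itga4, the alpha chain that pairs with beta1 to bind VCAM1 and fibronectin, was at 0.274, 0.589 and 0.619 CPM with YAPi_NOTCHi, against 0, 0 and 0 with DMSO. Of 8 integrin genes tested outside the 37, 6 rose and 2 fell (background 45.6% higher and 40.5% lower). Of 18 integrin ligands tested, 17 fell and 1 rose (background 40.5% lower and 45.6% higher). The one that rose was Lama2, the alpha chain of muscle and nerve laminin, at 0.156, 0.118 and 0.232 CPM with YAPi_NOTCHi, against 0, 0 and 0.0480 with DMSO. Tenascin C (Tnc), a ligand of alpha9 and of alpha-v integrins, averaged 1.33 ± 0.314 CPM with YAPi_NOTCHi, against 13.9 ± 0.457 with DMSO. Nephronectin (Npnt), the ligand of alpha8-beta1, averaged 15.3 ± 1.14 CPM with YAPi_NOTCHi, against 119 ± 1.45 with DMSO.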
